A study of Mus musculus with 2 samples.

Results

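The T-box genes Tbx5, Tbx3, Tbx20, Tbx2 and Tbx18 were examined for binding of TBX5 in the adult mouse heart. A TBX5 peak was counted at these genes when its summit, the position of highest signal, lay in 1 of 4 windows on the mouse build mm9. The windows ran from 119.90 to 120.60 Mb of chromosome 5 for Tbx3 and Tbx5, from 24.47 to 24.63 Mb of chromosome 9 for Tbx20, from 85.60 to 85.75 Mb of chromosome 11 for Tbx2 and from 87.50 to 87.70 Mb of chromosome 9 for Tbx18. Of the 8849 peaks in the list, 9 met this rule. The Tbx3/Tbx5 window held 8 of them, the Tbx2 window held 1, and the Tbx20 and Tbx18 windows held 0.

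The peaks came from ventricles of wild type C57BL/6 mice aged 15 weeks that had received no treatment. Chromatin fixed with 2% formaldehyde was pulled down with a TBX5 antibody and the DNA was sequenced, and a rabbit IgG served as the control pull-down. Each antibody had 2 biological replicates according to the series' design, but the values used here come from 1 merged list of TBX5 peaks. No value of a single replicate or of the IgG sample was analysed here, so no replicate error stands behind any value below. No difference between loci was tested against such error, and the intervals below cover counting error only. Ventricular tissue holds several cell types, and a peak does not say in which of them TBX5 was bound.

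T-box proteins are transcription factors that share a DNA-binding domain, the T-box, and recognise closely related DNA sequences. TBX5 activates genes of the working and conducting heart muscle together with factors such as NKX2-5 and GATA4, and its mutation in people causes Holt-Oram syndrome, with malformed hearts and upper limbs. TBX2 and TBX3 are mainly repressors that keep the atrioventricular canal and the conduction system from becoming chamber muscle. TBX20 is needed in chamber muscle, and TBX18 marks the epicardium and takes part in forming the sinus node. In the gene order of assembly GRCm38.p6, Tbx3 and Tbx5 are next to each other on chromosome 5 with no protein-coding gene between them, Med13l before the pair and Rbm19 after it. Tbx2 lies between Bcas3 and Tbx4, Tbx20 between Cypt4 and Herpud2, and Tbx18 between Cep162 and Nt5e.

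That gene order is from another build than the peaks, and no mm9 annotation was used here. That the windows hold the named genes on mm9 was taken from the rule and not checked against an annotation. Peaks were therefore not assigned to an exon, intron, UTR or promoter, and a peak of the chromosome 5 window cannot be given to Tbx5 rather than to Tbx3. Nor can it be given to either of them rather than to the neighbours Med13l and Rbm19. Peaks are named below after their window only. The question whether TBX5 binds at its own gene is answered below only for the shared window, and a peak does not show that a gene's transcription depends on it.

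Of the 5 genes, Tbx20 and Tbx18 were matched to an entry in the RefSeq promoter table (build GRCm38.p6). Their sequences are shown, and the windows of both held no TBX5 peak. Each line gives the 250 bases before the gene's start, 5′ to 3′ on the strand of the gene, which is the minus strand for both. Capitals mark GGTGT or its reverse complement ACACC, the shortest form searched of the letters that T-box proteins recognise. The Tbx20 sequence is chr9:24774304-24774553 and the Tbx18 sequence is chr9:87731261-87731510 on GRCm38.p6, and these positions cannot be set beside the mm9 positions of the peaks.
Tbx20: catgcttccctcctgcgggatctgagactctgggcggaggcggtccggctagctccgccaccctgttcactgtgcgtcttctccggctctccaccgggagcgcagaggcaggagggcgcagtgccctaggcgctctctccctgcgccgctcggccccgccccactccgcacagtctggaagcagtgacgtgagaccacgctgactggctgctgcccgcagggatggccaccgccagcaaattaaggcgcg
Tbx18: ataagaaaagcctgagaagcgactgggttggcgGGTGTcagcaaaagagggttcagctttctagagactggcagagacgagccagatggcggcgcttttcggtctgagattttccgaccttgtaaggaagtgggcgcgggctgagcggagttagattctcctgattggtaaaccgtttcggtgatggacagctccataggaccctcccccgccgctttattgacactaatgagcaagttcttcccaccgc

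The T-box letters AGGTGT were searched on both strands in the whole promoter window of 300 bases, which runs from 250 bases before to 50 after the start. Neither the Tbx20 nor the Tbx18 window held them (0 of 2), and 13.7% of the 32851 promoters in the table did. The longer form AGGTGTNA contains AGGTGT, so it could be in neither window, and it was in 3.03% of all promoters. The shorter form GGTGT, chosen after the first result was seen, is contained in both other forms and was in 41.6% of all promoters. It occurred once in the Tbx18 window, starting 217 bases before the start, and not in the Tbx20 window. Among 10 other T-box genes found in the table (13 promoters), Tbx1, which acts in the pharyngeal arches and outflow tract, was the only gene with AGGTGT. These matches describe letters and are not binding sites, and no match says only that the letters are not in this window. The upstream bases of Tbx20 were 68.8% G or C and those of Tbx18 54.0%, against a median of 52.4% over the table.

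Peaks were dense in the Tbx3/Tbx5 window, and none lay in the Tbx20 and Tbx18 windows. The Tbx3/Tbx5 window carried 11.4 peaks per Mb (exact 95% Poisson interval 4.93 to 22.5, which treats peaks as independent), where chromosome 5 as a whole carried 3.87. When chromosomes 1 to 19 were divided into windows of the same 0.7 Mb, 302 of 3380 (8.93%) held 8 or more peaks, the median window held 1 and the fullest held 29. The mean was 2.57 peaks, with 35.6% of the windows empty, so peaks were clumped and the Poisson interval is too narrow. On chromosome 5 alone 18 of 212 such windows held 8 or more. The locus thus had more peaks than most windows of its width without being among the fullest.

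**Figure D1:**
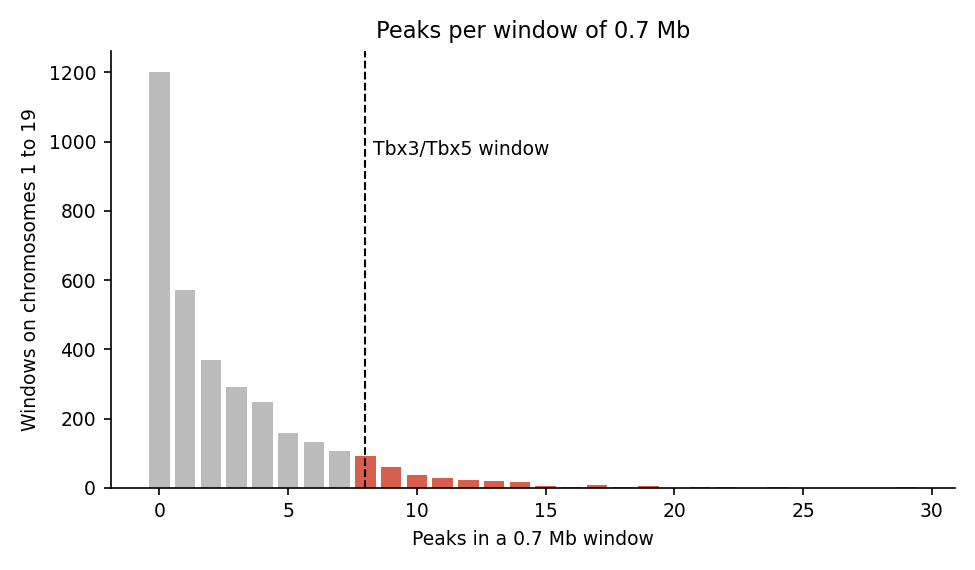
Number of TBX5 peaks (x axis) in windows of 0.7 Mb on chromosomes 1 to 19 (y axis, number of windows); the dashed line marks the 8 peaks of the Tbx3/Tbx5 window and red bars the 302 windows with 8 or more. Windows with no peak were the most frequent kind (1202 of 3380), and the Tbx3/Tbx5 window stood in the falling right-hand part.

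The other windows were narrower, so their counts are read against windows of their own width. The Tbx2 window of 0.15 Mb held 1 peak, and 29.4% of windows of that width held at least 1. An empty window was the usual case at the widths of the Tbx20 window (0.16 Mb, 69.5% empty) and the Tbx18 window (0.2 Mb, 64.9% empty). The absence of peaks there was thus shared with most of the genome. With 0.7 Mb taken around the centre of each window, a comparison added after the counts were seen, the numbers were 8 at Tbx3/Tbx5, 3 at Tbx20, 1 at Tbx2 and 1 at Tbx18. The caller's peak numbers ran without a gap through all 4 windows and to the next peak on each side, so none of the 73 numbers missing from the list fell there.

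**Figure D2:**
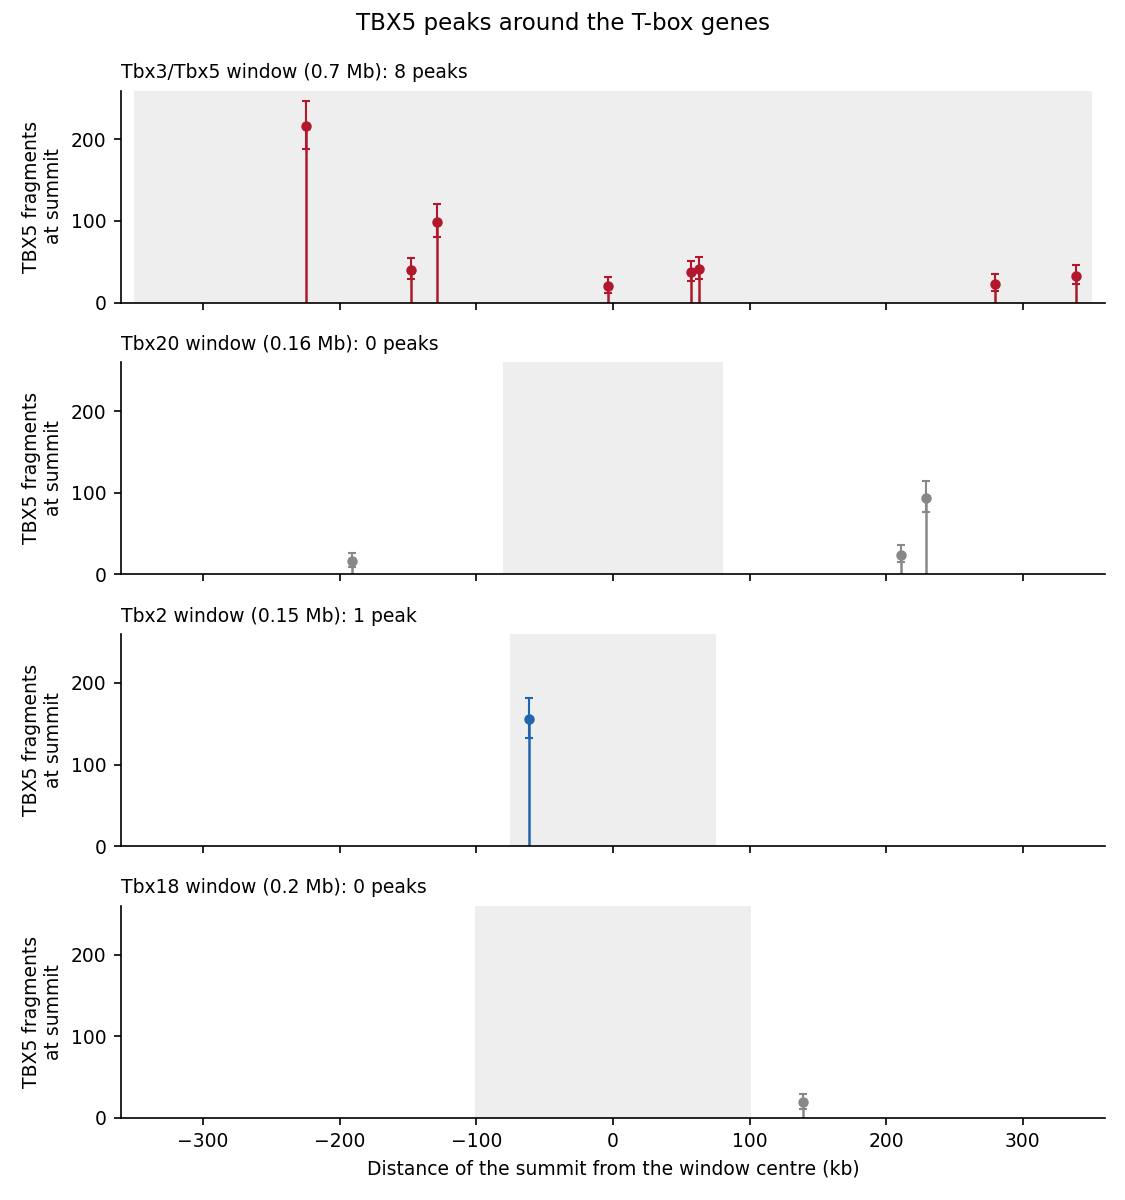
TBX5 fragments at the summit (y axis, with exact 95% Poisson intervals) against the distance of the summit from the centre of each window in kb (x axis), 1 panel per window; grey areas are the windows, coloured points the 9 peaks inside and grey points peaks outside. The 2 highest points are the peaks of 216 fragments at Tbx3/Tbx5 and 156 at Tbx2, and the Tbx20 and Tbx18 windows are empty.

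Each peak is described below by the TBX5 fragments that overlapped its summit, by the local control level and by the fold. Fragments and control level were computed from the deposited fold and p-value. The control level is the number of control fragments per position around the summit, taken from the window that gives the highest value, and its background over the genome was 1.18. Whether the control was the IgG sample is not said in the sources at hand. Intervals on fragments are exact 95% Poisson intervals that cover counting error only, and intervals on the fold hold the control level fixed.

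The strongest TBX5 site of the Tbx3/Tbx5 window was its first in coordinate order, on chromosome 5 from 120024962 to 120025544. Its summit held 216 TBX5 fragments (188 to 247) where the control level was 9, so its fold was 17.1 (14.9 to 19.5). It ranked 3rd of 8849 by fragments, 20th by score and 157th by width (583 bp). Its place by fold was lower, within the top 3.25%, since its control level was high (top 7.71% of the list). Of the 198 peaks at a control level of 9, whose median was 43.5 fragments, none had more. This site alone held 42.4% of the 509 fragments summed over the 8 summits. It lay 242 kb from the summit before it and 76.5 kb from the one after.

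The next site, from 120101614 to 120102026, was ordinary in height but wide. Its 40 fragments (28.6 to 54.5) over a control level of 4 gave a fold of 6.49. Its width of 413 bp was in the top 7.87% of the list. Peaks with fragments within its interval had a median width of 214 bp.

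The site from 120120635 to 120121068 combined many TBX5 fragments with many control fragments. It held 99 TBX5 fragments (80.5 to 121), the second most in the window and in the top 3.66% of the list. Its control level of 22 was exceeded by only 4 peaks of the list, and its fold of 3.43 (2.80 to 4.17) was the lowest of the 9 peaks. Peaks with as many TBX5 fragments had a median control level of 5 and a median fold of 13.0. Among the 8 peaks of the list at a control level of 22 or more, however, its fold was the highest, the median being 1.97 and the lowest 1.88. This summit was thus high in both libraries, and what raised the control there was not tested.

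A weak site followed near the centre of the window, from 120246541 to 120246671. It held 20 fragments (12.2 to 30.9), the fewest of the 9 peaks, and with a control level of 2 its fold was 5.58. Of the 764 peaks at a control level of 2, 60.7% had more fragments.

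The next 2 sites formed the only close pair. The first, from 120307138 to 120307347, held 37 fragments (26.1 to 51.0) over a control level of 2, which gave a fold of 10.03 (7.16 to 13.7). The second, from 120312553 to 120312817, held 41 fragments (29.4 to 55.6) where the control level was 4, and had a fold of 6.65 (4.83 to 8.95). Their summits were 5.45 kb apart. The ratio of their fragments, second to first, was 1.11 with an exact 95% interval of 0.693 to 1.78 for counting error, so the pair did not differ in TBX5 fragments beyond that error. Their fold intervals overlapped, and the higher fold of the first went with its lower control level.

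Past a stretch of 217 kb without a summit came 2 weak sites near the far end of the window. The site from 120530122 to 120530246 held 23 fragments (14.6 to 34.5) where the control level was 3. It had a fold of 4.77 and was 125 bp wide, the narrowest width in the list. Other peaks shared this width, among them the first after the Tbx18 window. The last site, from 120588442 to 120588712, held 33 fragments (22.7 to 46.3) and, with a control level of 6, had a fold of 3.85. Both were below the list's median fold of 5.52, and 69.1% and 65.9% of the peaks at their own control levels had more fragments. The end of the window was not an edge of the peaks, since a further weak peak with 26 fragments and a fold of 3.06 lay 27.0 kb beyond it. On the other side the nearest peak lay 117 kb before the window, with 49 fragments and a fold of 6.59.

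**Figure D3:**
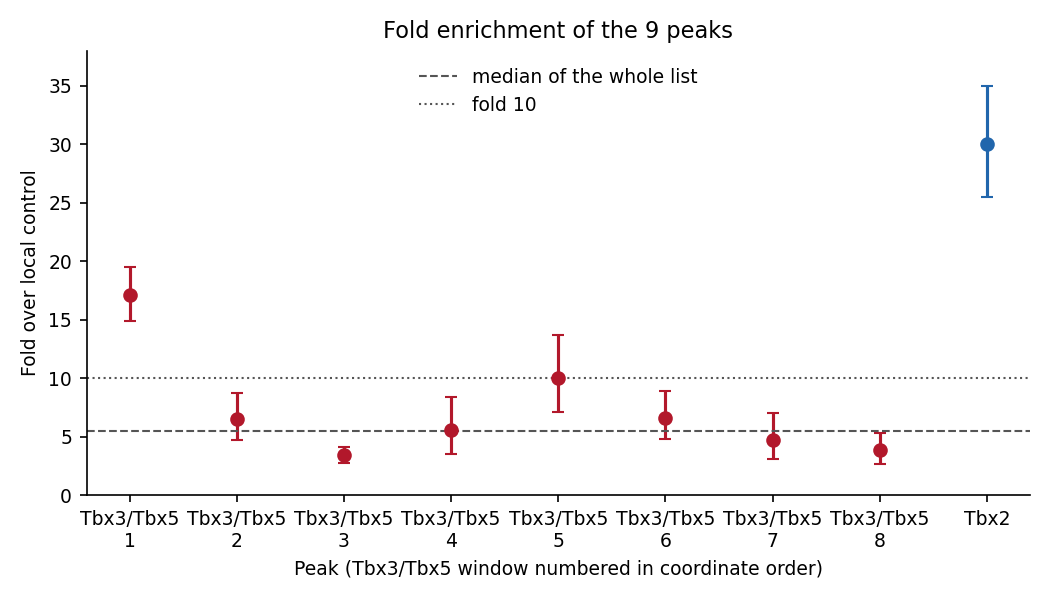
Fold over the local control level (y axis, points with exact 95% Poisson intervals of the TBX5 fragments at a fixed control level) for the 8 Tbx3/Tbx5 peaks in coordinate order and the Tbx2 peak (x axis); lines mark the list's median fold of 5.52 and a fold of 10. The Tbx2 peak (30.0) and the first Tbx3/Tbx5 peak (17.1) stand above the others, whose folds run from 3.43 to 10.03.

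The Tbx2 window held a single TBX5 site, which was among the strongest of the list. It lay on chromosome 11 from 85613322 to 85613841, close to the start of the window (13.6 kb inside it). Its summit held 156 fragments (132 to 182) where the control level was 3.13, which made a fold of 30.0 (25.5 to 35.0). It ranked 24th by score, 37th by fold and 60th by fragments of 8849. Of the 95 peaks at the same control level, whose median was 33 fragments, 1 had more. Its width of 520 bp was close to the median of 505 bp of peaks with fragments within its interval, so its shape was ordinary for its height.

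The Tbx2 site also stood alone. The nearest summit was 308 kb before it, with 27 fragments, and the next was 596 kb after it, with 19 fragments. Among the 8739 peaks on chromosomes 1 to 19, 7.15% were as far or farther from their nearest neighbour. Of the 24 autosomal peaks that scored as high or higher, 2 (8.33%, this site included) were as isolated, and the median distance among the 24 was 7.44 kb. For the first Tbx3/Tbx5 site the nearest summit was 76.5 kb away, a distance reached by 28.4% of autosomal peaks and by 3 of the 20 (itself included) that scored as high or higher. In the gene order of GRCm38.p6, Tbx2 has Bcas3 before it, and Tbx4, a T-box gene of the limb and lung, directly after it. The site lay close to the start of the window and was not assigned to any of these genes.

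The strongest sites of the 2 loci differed in how they reached similar scores. That of Tbx3/Tbx5 was picked as the highest of 8 peaks, and that of Tbx2 was the only peak of its window. The Tbx3/Tbx5 site had 1.38 times the fragments of the Tbx2 site (exact 95% interval 1.12 to 1.71, counting error only), over a control level of 9 against 3.13. The order by fold was the opposite, 17.1 against 30.0, and these fold intervals did not overlap. The interval covers neither replicate error nor the error of the control level, so it describes these 2 summits in this list.

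**Figure D4:**
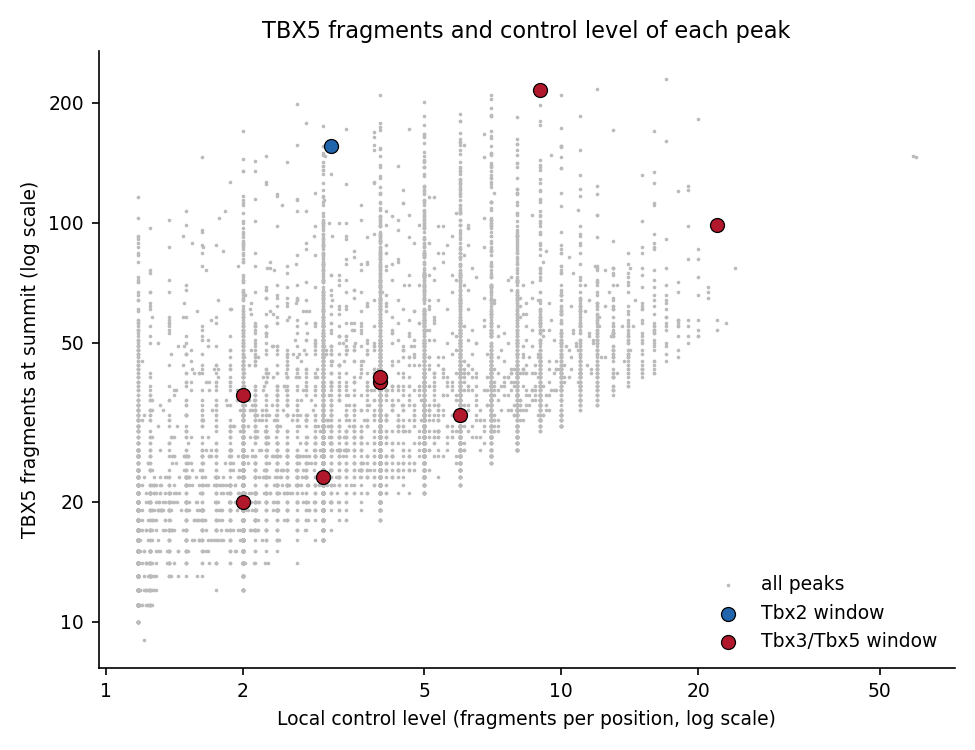
TBX5 fragments at the summit (y axis, log scale) against the local control level in fragments per position (x axis, log scale) for all 8849 peaks (grey), the 8 Tbx3/Tbx5 peaks (red) and the Tbx2 peak (blue). The red points at the top (216 fragments over 9) and at the right (99 over 22) lie at the margins of the cloud, and the other 6 red points lie within it with 20 to 41 fragments, around the list's median of 32.

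Around the Tbx20 window no peak was called over 402 kb of chromosome 9, the distance between the last summit before the window and the first after it. Of the 8720 distances between neighbouring summits on chromosomes 1 to 19, 16.3% were as long or longer, and their median was 73.0 kb. Each distance was counted once whatever its length. A position picked without regard to the peaks falls into a long stretch more often than such a share says. The windows here were chosen with earlier results of these data known. The peak before, 111 kb from the window, was close to the threshold of the list, holding 16 fragments (9.15 to 26.0) at a fold of 3.40. The first peak after, 131 kb from the window, held 24 fragments (15.4 to 35.7) at a fold of 3.98. The strongest site nearby was the next one, 17.6 kb farther on between 24778557 and 24779116. It held 94 fragments (76.0 to 115) at a control level of 9, and its fold was 7.49.

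Around the Tbx18 window the stretch without a summit was 654 kb. Of the distances on chromosomes 1 to 19, again each counted once, 9.86% were as long or longer. The peak before the window was 415 kb away, and held 13 fragments (6.92 to 22.2) at a fold of 5.16. The peak after it was 38.9 kb away, between 87738864 and 87738988, and held 19 fragments (11.4 to 29.7) at a fold of 3.99. No nearby site was strong. In the list the fewest fragments at a summit were 10 for peaks at the genome background, 16 at a control level of 3 and 18 at a level of 4. Weaker binding in the Tbx20 or Tbx18 window would not be listed, so a window without a peak does not show that TBX5 was not bound there.

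Set against the list as a whole, the 9 peaks were somewhat stronger, wider and less often grouped, in numbers too small to call this particular to them. Their median was 40 fragments and a fold of 6.49, against 32 fragments and 5.52 for all peaks. The median width was 271 bp against 202 bp, and the median control level was 4 against 3.5. Of the 9 peaks, 3 had a fold of at least 10, as did 13.7% of the list, and the third of these, the first of the close pair, was at the threshold (10.03). A score at or above the list's median was reached by 6 of the 9, against 50.3% of the list. Another summit within 10 kb was found for 2 of the 9, the close pair, against 32.8% of the list. Among themselves the 8 Tbx3/Tbx5 peaks spanned 563 kb and ranged from 20 to 216 fragments.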

How the data were processed

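The members and windows were chosen with earlier results of these data known. The submitters' processing notes name MACS2 2.1.1.20160309.0, Bowtie2 2.2.6.2 and the build mm9. Settings of the peak caller, the library it took as control and the merging of replicates are not given in the sources at hand. The deposited file has the 10 narrowPeak columns, with a score (the whole part of 10 times −log10 q in 8846 of 8849 peaks), a fold over the local control level (a ratio), −log10 p and −log10 q (lowest 1.30), all of them the authors' values. Coordinates are counted from 1.

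Fragments and control level were solved from the deposited fold and −log10 p, with the fold as (scaled TBX5 pileup + 1) / (control level + 1) and p as the upper Poisson tail of the whole part of the pileup. With a single scale of 0.787, the closest number of fragments lay within a −log10 p of 0.00014 for all 8849 peaks. A solution also had to give a control level not below the background, and all 8849 peaks had such a solution within 0.005. A second such solution existed for 240 peaks, none of them among the 9, and the closest of these solutions was taken. The recovery was tested on data simulated with the same formulas, so that test does not show that the formulas hold for the deposited list. The simulated summits held fewer fragments than the strongest site described here. Library totals were not analysed here. Windows of equal width were laid from the first to the last summit of chromosomes 1 to 19. Every peak of each window is described, in coordinate order, as the rule for named sites asked of windows with up to 12 peaks. The planned comparison of T-box proteins was not run, since no protein sequences were at hand, and the promoters of Tbx5, Tbx3 and Tbx2 were not used here. Alternatives changed the assignment of peaks, window bounds, threshold, merging, stitching distance and motif. The work used scipy 1.17.1, numpy 2.4.6 and pandas 2.3.3 under Python 3.11.15, and matplotlib 3.10.9 for figures.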

Additional observations from a re-analysis of the deposited data

How the results depend on the processing

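Of 45 alternatives, 36 kept the value within its limit (counts up to 1.5 times apart, densities and shares inside their 95% interval, medians inside the range of the 9 peaks without the lowest and highest) and 9 moved it; 5 were added after the data were seen. Keeping only peaks at or above the median score left 5 in the Tbx3/Tbx5 window. It also raised the median TBX5 fragments of the T-box peaks from 40 to 70, which it does by construction. That median stayed within its limit and is not among the 9 values that moved. Bounds widened by 50 kb brought 1 peak into the Tbx18 window, and a width of 0.7 Mb for all loci gave 3 at Tbx20 and 1 at Tbx18. With chromosome X among the windows, 71.0% were as empty as Tbx20, 66.5% as Tbx18, and 28.0% held as many peaks as Tbx2. At a stitching distance of 5 kb, 0 peaks had a neighbour, since the close pair lay 5.45 kb apart. The motif GGTGT was in 1 promoter. These changes follow from how each alternative is built. So do several of the values kept, and the count of 36 is therefore no measure of robustness. Merging within 1 kb had no peaks of these windows to merge, and a score filter cannot change an empty window. A width of 0.7 Mb is the Tbx3/Tbx5 window itself, and AGGTGTNA cannot occur without AGGTGT. No paired analysis was possible because only 1 merged list was at hand, and no replicate could be left out. Comparison of proteins was not run.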
